A study of Homo sapiens with 15 samples.

Results

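Hypoxia-inducible factor (HIF) genes were followed in MIA PaCa-2, an established human pancreatic carcinoma cell line. The set held 10 of the 60107 genes in the deposited files and was taken by gene symbol: HIF1A itself, and VEGFA, ADM, SLC2A1, PDK1, BNIP3, BNIP3L, NDRG1, CA9 and EGLN3, which are known targets of the factor. RNA was sequenced from 15 libraries in 5 groups of 3, labelled Ctrl (vehicle), Lys05, BAQ12, BAQ13 and BAQ12O. Lys05 is a dimeric chloroquine that accumulates in lysosomes, and BAQ12 and BAQ13 are compounds directed at lysosomes that the study examined as self-assembled nanoparticles. The agents were given at 5 µM for 24 h. The study's design text lists an agent written 12O where the sample labels have BAQ12O, and the identity of BAQ12O is not given in the sources used here. All cells were of 1 line, no library was labelled as hypoxic, and the oxygen level of the cultures is not given in the sources used here. Nothing in the labels says whether the 3 libraries of a group came from separate cultures, so p-values measure the spread between these libraries, which may be partly technical.

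HIF is a pair of proteins, an oxygen-regulated alpha subunit and the constant beta subunit ARNT. In oxygen, prolyl hydroxylases of the EGLN family mark the alpha subunit, the VHL ubiquitin ligase binds it and the proteasome degrades it. In low oxygen, or when iron, which the hydroxylases need, is scarce, the alpha subunit persists, pairs with ARNT and binds DNA at short sites with the core ACGTG or GCGTG. This control acts on the protein, so the level of HIF1A mRNA is not a readout of HIF activity. The targets carry out the adaptation: VEGFA and ADM are secreted, SLC2A1 brings in glucose and PDK1 limits the oxidation of pyruvate in mitochondria. BNIP3 and BNIP3L mark mitochondria for autophagy, which ends in the lysosome, and CA9 handles the acid that is made.

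To show the element in these genes, the 250 bases before the RefSeq start sites (GRCh38.p14) were searched on both strands for ACGTG and GCGTG. The prepared set of promoter windows covered 7 of the 10 genes, in 9 windows. It held no entry for VEGFA, NDRG1 and BNIP3L, whose promoters were therefore not searched. Of the 9 windows, 5 held either motif, 1 each in 5 genes, and 43.2% of all 35116 promoter windows held either, 18.5% held ACGTG and 32.2% held GCGTG. The sites are shown to give the form of the HIF core sequence in these genes. Each is 30 bases on the gene's strand around the ACGTG match nearest the start, or the GCGTG match where the window has no ACGTG, with every match to ACGTG or GCGTG or their reverse complements in capitals.
CA9: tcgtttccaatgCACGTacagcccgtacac
PDK1: ccctgctgcccgcCACGTccctCACGTacc
BNIP3: cgCACGCgccgCACGTGccaCACGCacccC
ADM: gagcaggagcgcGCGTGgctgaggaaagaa
HIF1A: tggctgagagcgGCGTGggctggggtgggg

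The CA9 stretch lies at chr9:35673898-35673927 on the plus strand, and its match ends 14 bases before the start. PDK1 had a pair of matches at chr2:172556060-172556089 on the plus strand, the nearer 4 bases before the start of the second of its windows. The BNIP3 stretch (chr10:131982039-131982068, minus strand) holds ACGTG on both strands within CACGTG, a palindrome that 6.34% of all windows held, and its full window had 6 matches. The final capital of the printed BNIP3 stretch is the first base of a further match. ADM had 1 GCGTG match, 97 bases before the start (chr11:10304960-10304989, plus strand), and HIF1A had 1, 200 bases before it (chr14:61695297-61695326, plus strand). SLC2A1 and EGLN3 had no match in their windows. A match describes the letters and does not show that HIF was bound.

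Between 1586566 and 2500551 gene reads were recovered from each library (median 2230594). The values are normalised counts, which are gene reads divided by a single size factor per library. BAQ12 replicate 3 stood apart from the other libraries. The SD of its log2 difference from its group mates across genes was 0.670, and it was 0.309 to 0.456 in the other 14 libraries. It had the lowest value of the BAQ12 group for 6 of the 7 HIF genes tested and the highest for SLC2A1, so results for BAQ12 are also given without it. The epithelial keratins KRT8, KRT18 and KRT19 had at least 175.4 normalised counts in every library, whereas EPCAM had a read in 1 library and CDH1 at most 6.28. CDKN2A, which is deleted in this line, had 0 reads. Of 14 markers of other cell types, PECAM1, CD3E, DCN, LUM, PRSS1, CPA1, GCG and ALB had 0 reads, while the endothelial gene CDH5 was present in every library at 23.9 to 75.3. The remaining 5 of these markers, PTPRC, CD14, COL1A1, VWF and INS, had at most 9.65 normalised counts.

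The depth of the libraries limits what can be measured of these genes. Reads per library were 405 to 1251 for HIF1A, 110 to 324 for BNIP3L, 49 to 96 for SLC2A1 and 32 to 64 for VEGFA, but 10 to 29 for NDRG1, 4 to 20 for PDK1 and 3 to 18 for ADM. CA9 and BNIP3 had 0 reads in all 15 libraries, and EGLN3 had 1 read, in Ctrl replicate 2. A filter on low counts therefore left 7 of the 10 genes to be tested. ADM passed it in only 3 libraries, 2 of Ctrl and 1 of BAQ12, and it thus reached the test mainly through the group in which it was highest, which by itself favours a difference from that group.

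With limma across all 10495 genes, 0 of the 7 genes passed an adjusted p of 0.05 in any of the 4 comparisons with Ctrl. Among all genes tested, 0.238% passed for Lys05, 0.981% for BAQ12, 5.77% for BAQ13 and 1.48% for BAQ12O, and 0 of 7 does not stand apart from those shares. edgeR and DESeq2 on the recovered reads also called 0 of the 7, with no adjusted p from DESeq2 for ADM under BAQ12 and BAQ12O. At an unadjusted p under 0.05 limma gave 1 gene for Lys05 (ADM), 2 for BAQ12 (VEGFA and ADM), 3 for BAQ13 (VEGFA, ADM and SLC2A1) and 1 for BAQ12O (ADM), where 4.98%, 11.8%, 19.4% and 12.8% of all genes did so. The study's threshold, a fold change of at least 2 with an unadjusted p of at most 0.05, was applied here to the limma differences and p-values. The study itself used fold changes and a t test on normalised counts, so its counts of genes are not matched by these. With limma, ADM was the single gene of the set that counted, for Lys05, BAQ13 and BAQ12O. That threshold took 0.543%, 2.16% and 0.953% of all genes, and 1.03% for BAQ12. The 4 comparisons share the Ctrl libraries and are not independent of each other.

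**Figure D1:**
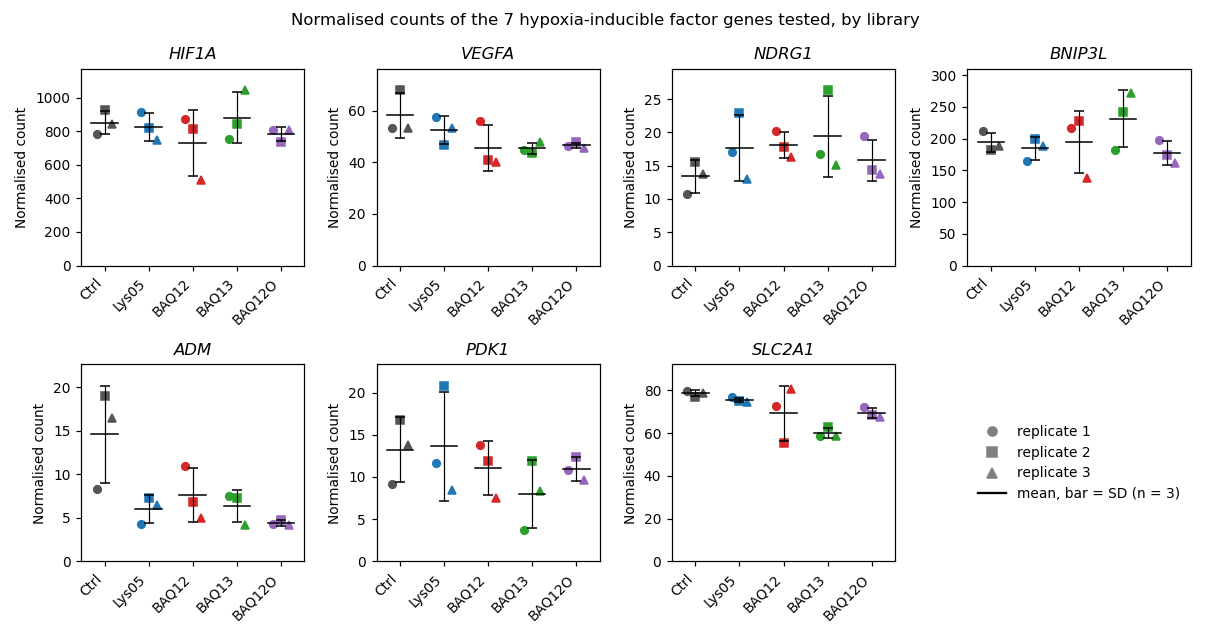
Normalised counts (y axis, linear from 0) of the 7 HIF genes with enough reads to be tested, in each library of the 5 groups (x axis). Points are libraries with the marker giving the replicate number, the horizontal line is the group mean and the bar is its SD (n = 3). ADM is at 8.30 to 19.0 in Ctrl and at 4.14 to 4.77 in BAQ12O, and SLC2A1 is at 77.05 to 79.7 in Ctrl and at 58.7 to 62.9 in BAQ13.

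HIF1A encodes the oxygen-regulated alpha subunit (chr14:61695513-61748259, plus strand; gene positions are from GENCODE 29, GRCh38). Its normalised counts were 785, 925 and 844 in Ctrl, 913, 822 and 747 in Lys05, 871, 813 and 509 in BAQ12, 757, 842 and 1048 in BAQ13, and 806, 739 and 807 in BAQ12O. Every treated group overlapped Ctrl, and the lowest value, 509, belonged to BAQ12 replicate 3. The log2 differences from Ctrl were -0.04 for Lys05, -0.25 for BAQ12, 0.04 for BAQ13 and -0.12 for BAQ12O, each with a standard error of 0.16. With BAQ12 replicate 3 left out, the BAQ12 difference was -0.01. The 95% intervals over the 4 comparisons ran from -0.59 to 0.38, so at these read numbers a change of the mRNA by a factor of 2 lay outside them. HIF1A-AS1 and HIF1A-AS2, which overlap the gene on the other strand, held 0 reads and 1 read in all.

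The secreted factors were VEGFA and ADM. VEGFA, the vascular endothelial growth factor (chr6:43770184-43786487, plus strand), had normalised counts of 53.1, 68.1 and 53.2 in Ctrl, 57.5, 46.9 and 53.2 in Lys05, 55.9, 40.8 and 40.2 in BAQ12, 44.8, 43.7 and 47.8 in BAQ13, and 46.4, 47.7 and 45.5 in BAQ12O. All 3 BAQ13 and all 3 BAQ12O libraries lay below all 3 Ctrl libraries, while Lys05 and BAQ12 overlapped Ctrl. The log2 differences were -0.14 for Lys05, -0.35 for BAQ12, -0.34 for BAQ13 and -0.31 for BAQ12O (standard error 0.16), with limma adjusted p-values of 0.999, 0.419, 0.255 and 0.444. Leaving out BAQ12 replicate 3 gave -0.27 for BAQ12. VEGFA thus did not pass the test in any treatment.

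ADM encodes adrenomedullin, a vasodilating peptide hormone (chr11:10304680-10307397, plus strand), and had the largest limma difference from Ctrl of the 7 genes in all 4 treatments. Its normalised counts were 8.30, 19.0 and 16.5 in Ctrl, 4.26, 7.29 and 6.53 in Lys05, 11.01, 6.80 and 5.02 in BAQ12, 7.47, 7.29 and 4.19 in BAQ13, and 4.31, 4.77 and 4.14 in BAQ12O. Every Lys05, BAQ13 and BAQ12O library lay below every Ctrl library, and the gap to the lowest Ctrl library, at 8.30, was under 1 normalised count for BAQ13. Means were 14.6 ± 5.59 (SD, n = 3) in Ctrl, 7.61 ± 3.07 in BAQ12, 6.32 ± 1.84 in BAQ13, 6.03 ± 1.58 in Lys05 and 4.40 ± 0.326 in BAQ12O. In this order, BAQ12, BAQ13 and Lys05 overlapped each other, BAQ12O overlapped Lys05 and BAQ13, and BAQ12 overlapped Ctrl.

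The log2 difference of ADM from Ctrl was -1.46 for BAQ12O (standard error 0.37, 95% interval -2.25 to -0.67), with an adjusted p of 0.065. It was -1.103 for Lys05, -1.05 for BAQ13 and -0.84 for BAQ12, with adjusted p-values of 0.678, 0.112 and 0.406. The BAQ12 difference was -0.62 without BAQ12 replicate 3. These are differences of log2(normalised count + 1), which understate the fold of a gene with so few reads. The result for BAQ12O was decided by single libraries. It passed without Ctrl replicate 1, the lowest of the Ctrl group (-1.79, adjusted p = 0.0424), and without BAQ12 replicate 3, which leaves the difference at -1.46 and changes the shared spread (adjusted p = 0.0237). Leaving out each of the other libraries gave adjusted p-values up to 0.286, reached without Ctrl replicate 2. It also passed when only the 6 libraries of BAQ12O and Ctrl were fitted (adjusted p = 0.0136), but not with edgeR (adjusted p = 0.0586), and the settings that leave out no library of these groups ranged from 0.0125 to 0.194. Its reads were 3 to 5 per BAQ12O library and 10 to 18 per Ctrl library, and a floor of 3 reads corresponds to 2.49 to 4.14 normalised counts.

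**Figure D2:**
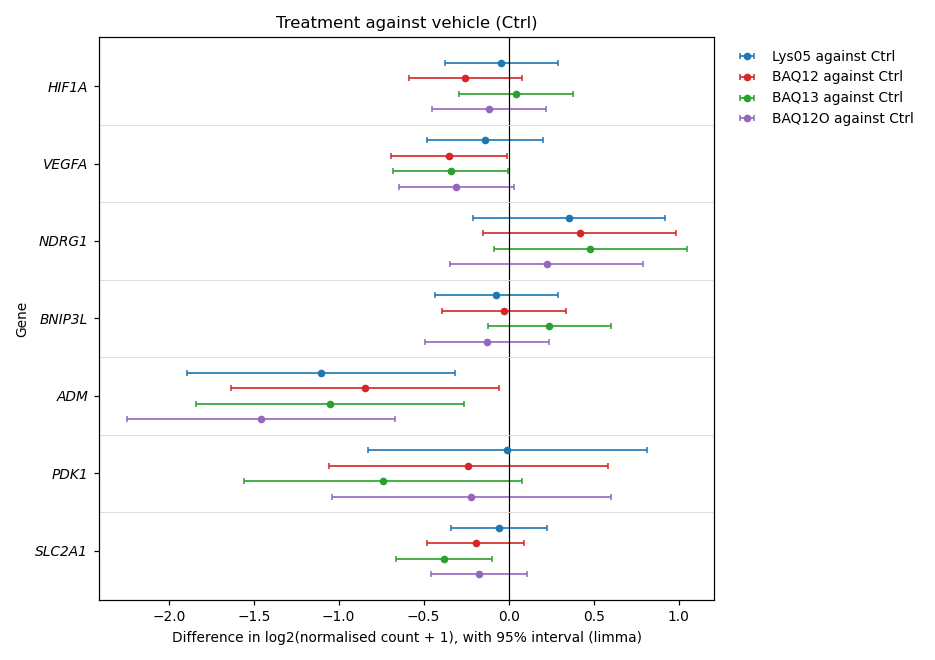
Differences from Ctrl in log2(normalised count + 1) (x axis) for the 7 HIF genes tested (y axis), with 95% intervals from limma, in 1 colour per treatment. The ADM estimates lie at -0.84 to -1.46, and those of the other 6 genes between -0.74 and 0.48.

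Of the metabolic genes, SLC2A1 encodes GLUT1, the main basal glucose transporter (chr1:42925375-42959176, minus strand). Its normalised counts were 79.7, 77.05 and 78.9 in Ctrl, 76.7, 75.0 and 74.7 in Lys05, 72.5, 55.3 and 80.4 in BAQ12, 58.8, 62.9 and 58.7 in BAQ13, and 72.2, 68.6 and 67.6 in BAQ12O. The Lys05, BAQ13 and BAQ12O libraries all lay below those of Ctrl, BAQ13 lay below Lys05 and BAQ12O as well, and BAQ12 spanned the others. The gap for Lys05 was narrow, from 76.7 to 77.05 in Ctrl, and counting error at the gene's median reads was 11.95% of the value. By mean, Ctrl (78.6 ± 1.37) was followed by Lys05 (75.4 ± 1.07), BAQ12O (69.5 ± 2.44), BAQ12 (69.4 ± 12.9) and BAQ13 (60.1 ± 2.40; SD, n = 3 each).

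The SLC2A1 log2 difference from Ctrl was -0.38 for BAQ13 (standard error 0.13, 95% interval -0.67 to -0.10), with an adjusted p of 0.11. For Lys05, BAQ12 and BAQ12O it was -0.06, -0.19 and -0.18, with adjusted p-values of 0.999, 0.552 and 0.63. Without BAQ12 replicate 3 the BAQ12 difference was -0.31 (adjusted p = 0.529). When libraries were weighted by their estimated quality, both BAQ13 (-0.34, adjusted p = 0.0314) and BAQ12 (-0.43, adjusted p = 0.0203) passed. With those weights 2333 of all 10495 genes passed for BAQ13 and 626 for BAQ12, beside 606 and 103 without weights. Over the other settings that did not leave out a library, the adjusted p ran up to 0.276 for BAQ13 and 0.763 for BAQ12.

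PDK1, pyruvate dehydrogenase kinase (chr2:172555373-172608669, plus strand), had 9.13, 16.7 and 13.8 normalised counts in Ctrl, 11.7, 20.8 and 8.40 in Lys05, 13.8, 11.9 and 7.54 in BAQ12, 3.73, 11.8 and 8.38 in BAQ13, and 10.8, 12.4 and 9.65 in BAQ12O. All groups overlapped Ctrl. Its log2 differences were -0.01, -0.24, -0.74 and -0.22 in the same order of treatments, with a standard error of 0.39. Leaving out BAQ12 replicate 3 gave -0.0054 for BAQ12. The interval for BAQ13 ran from -1.56 to 0.08, so a difference of this gene by a factor of 2 could not be told from none at 4 to 20 reads per library.

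BNIP3 and its relative BNIP3L (also NIX) are mitophagy receptors on the outer mitochondrial membrane. BNIP3L (chr8:26382898-26505636, plus strand) had 212, 182 and 188 normalised counts in Ctrl, 165, 200 and 189 in Lys05, 217, 228 and 138 in BAQ12, 182, 242 and 272 in BAQ13, and 198, 174 and 161 in BAQ12O. Again the lowest of all 15 values was BAQ12 replicate 3, and all groups overlapped Ctrl. The log2 differences were -0.07 for Lys05, -0.03 for BAQ12, 0.24 for BAQ13 and -0.13 for BAQ12O, with a standard error of 0.17 and no call. Without BAQ12 replicate 3 the BAQ12 difference became 0.20 (adjusted p = 0.743). With library quality weights the BAQ13 difference was 0.31 and passed (adjusted p = 0.0237), as did 2333 of all 10495 genes. The other settings with all libraries gave adjusted p-values up to 0.659. PNMA2 and SDAD1P1 overlap BNIP3L on the other strand with 149 and 241 reads over all libraries, and their reads cannot be told from its own if strand was not used in counting.

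BNIP3 (chr10:131966455-131982013, minus strand) had 0 reads in every library. Over the 32062349 gene reads of the 15 libraries, a count of 0 allows up to 3 reads, or 0.0936 CPM (reads scaled to library depth). This limit pools all 15 libraries, and that of a single group of 3 libraries, with fewer reads, is higher. Either limit holds for reads assigned to the gene. Whether a 0 reflects low expression or the way reads were assigned cannot be told from the files. Of its named pseudogenes, BNIP3P5 had 12 reads over all libraries and the others 0, while AL162274.2, antisense to BNIP3, had 66.

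NDRG1 encodes a stress-inducible cytoplasmic protein (chr8:133237171-133302022, minus strand). Its normalised counts were 10.8, 15.6 and 13.8 in Ctrl, 17.04, 22.9 and 13.1 in Lys05, 20.2, 17.9 and 16.3 in BAQ12, 16.8, 26.4 and 15.1 in BAQ13, and 19.4, 14.3 and 13.8 in BAQ12O. It was the 1 gene of the set with a higher mean than Ctrl in all 4 treatments, and all 3 BAQ12 libraries lay above Ctrl, whereas the other groups overlapped it. The log2 differences were 0.36, 0.42, 0.48 and 0.22 for Lys05, BAQ12, BAQ13 and BAQ12O (standard error 0.27), with adjusted p-values of 0.999, 0.527, 0.354 and 0.784. Leaving out BAQ12 replicate 3 gave 0.49 for BAQ12. Library quality weights brought BAQ13 to 0.78 with an adjusted p of 0.0185, while the other settings with all libraries gave values up to 0.612. The weights were 3.52 for BAQ13 replicate 2, which had the value of 26.4, and 0.430 and 0.657 for BAQ13 replicates 1 and 3. With them 2333 of all 10495 genes passed for BAQ13.

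CA9 and EGLN3 complete the set. CA9 is a cell-surface carbonic anhydrase often used as a marker of hypoxia (chr9:35673856-35681159, plus strand). It had 0 reads in all 15 libraries, with the same pooled limit of 0.0936 CPM on assigned reads and the same doubt about their assignment. ARHGEF39, which overlaps CA9 on the other strand, had 155 reads in all. EGLN3, the prolyl hydroxylase PHD3 that HIF induces as a brake on itself (chr14:33924231-34462774, minus strand), had its single read in Ctrl replicate 2. SPTSSA lies within the span of EGLN3 on the same strand and had 4292 reads over all libraries. CA9, BNIP3 and EGLN3 had at most 1 assigned read with and without treatment, and no fold change is given for them.

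Counted over the 7 genes tested, by the sign of the difference in mean log2(normalised count + 1), 6 were lower than Ctrl for Lys05, 6 for BAQ12, 4 for BAQ13 and 6 for BAQ12O, where 49.6%, 50.2%, 50.5% and 50.5% of all genes were. Their median log2 difference was -0.06, -0.24, -0.34 and -0.18, and over all genes it was 0.0018, -0.0014, -0.0042 and -0.0038. The 6 include differences near 0, PDK1 for Lys05 (-0.0087) and BNIP3L for BAQ12 (-0.03), whose means of normalised counts were above Ctrl. Leaving out BAQ12 replicate 3 brought the BAQ12 median to -0.0126 and its count of lower genes to 5. The genes whose 3 treated libraries all lay below Ctrl numbered 2 for Lys05, 0 for BAQ12, 3 for BAQ13 and 3 for BAQ12O, against 7.37%, 7.61%, 14.4% and 13.3% of all genes. In the other direction it was 1 gene for BAQ12, NDRG1, where 7.75% of all genes did so. ADM was among the genes with all libraries below Ctrl for Lys05, BAQ13 and BAQ12O, and among the lower genes in every treatment. It reached the test mainly through Ctrl, which favours a lower treated value, so these counts and medians are not independent of the filter. RNA from a whole culture cannot tell fewer cells of a kind from less RNA in each cell, which holds for each gene here.

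The compounds were then compared with each other at the matched dose and time, in 6 pairs that gave 42 comparisons of a gene and a pair. With limma, 0 of the 7 genes passed in any pair, and the smallest p adjusted over all genes was 0.269. The shares of all genes that passed were 0.162% for BAQ12 against Lys05, 2.66% for BAQ13 against Lys05, 0.248% for BAQ12O against Lys05, 0.562% for BAQ13 against BAQ12, 0.229% for BAQ12O against BAQ12 and 1.39% for BAQ12O against BAQ13. At an unadjusted p under 0.05 there were 2 of the 42, SLC2A1 in BAQ13 against Lys05, where 14.6% of all genes did so, and BNIP3L in BAQ12O against BAQ13, where 11.2% did. edgeR and DESeq2 called 0.

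**Figure D3:**
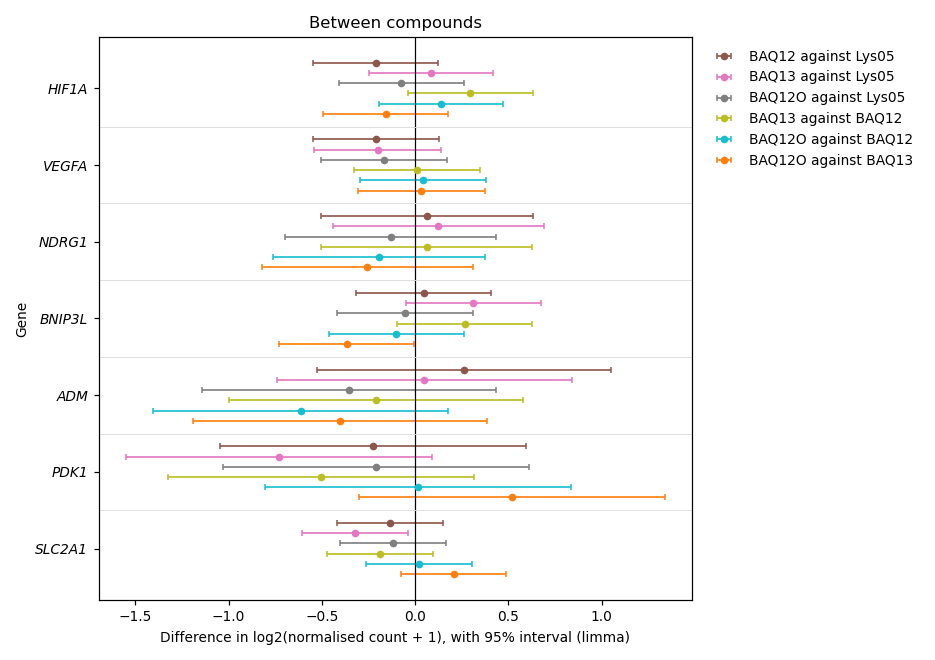
Differences in log2(normalised count + 1) between compounds (x axis) for the 7 HIF genes tested (y axis), with 95% intervals from limma, in 1 colour per pair. All but 2 intervals include 0, the exceptions being SLC2A1 for BAQ13 against Lys05 and BNIP3L for BAQ12O against BAQ13, and neither passed after adjustment over all genes.

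Between BAQ13 and Lys05 the smallest p was that of SLC2A1, with every BAQ13 library below every Lys05 library, as for 11.5% of all genes. Its log2 difference was -0.32, with an interval of -0.61 to -0.04 and an adjusted p of 0.269. PDK1 had the largest difference, at -0.73 (interval -1.55 to 0.09). The ADM estimate was close to 0, at 0.05, but the interval of -0.74 to 0.84 also holds a difference by a factor of over 1.5 either way. BNIP3L was at 0.31 (interval -0.05 to 0.67) and passed with library quality weights alone (0.38, adjusted p = 0.0106, and up to 0.615 over the other settings with all libraries). With those weights 1468 of all 10495 genes passed in this pair, beside 279 without weights.

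BAQ13 and BAQ12 gave intervals that all included 0, at -0.04 to 0.63 for HIF1A, -0.33 to 0.35 for VEGFA, -0.47 to 0.10 for SLC2A1 and -0.999 to 0.58 for ADM. For BAQ12 against Lys05 the interval was -0.55 to 0.12 for HIF1A, -0.42 to 0.15 for SLC2A1 and -0.53 to 1.05 for ADM. Without BAQ12 replicate 3 the HIF1A difference of BAQ13 from BAQ12 went from 0.30 to 0.05 and that of BAQ12 from Lys05 from -0.21 to 0.03, and no gene passed. The wide ADM and PDK1 intervals, which reached -1.55 for PDK1 in BAQ13 against Lys05, leave differences by a factor of 2 possible. A test that was not passed does not show that the compounds act alike.

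BAQ12O had the lowest mean of ADM. Its log2 difference was -0.61 (interval -1.40 to 0.17) from BAQ12, with no overlap between the groups (as for 4.94% of all genes, and -0.84 without BAQ12 replicate 3), -0.40 (interval -1.19 to 0.39) from BAQ13 and -0.35 (interval -1.14 to 0.43) from Lys05. SLC2A1 was higher in every BAQ12O library than in every BAQ13 library, by 0.21 (interval -0.08 to 0.49), and 9.34% of all genes were separated in that way. It was lower in every BAQ12O library than in every Lys05 library (-0.12, interval -0.40 to 0.17), as 9.19% of all genes were. For BNIP3L the difference of BAQ12O from BAQ13 was -0.37 (interval -0.73 to -0.0035, adjusted p = 0.439). It passed with library quality weights (-0.41, adjusted p = 0.0105), with values up to 0.596 over the other settings with all libraries. With those weights 908 of all 10495 genes passed for BAQ12O against BAQ13, beside 146 without weights.

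The rest of the pathway was read from lists of genes by role. Of 15 HIF subunits, oxygen sensors and adaptors, 13 were tested and 0 passed in any treatment with limma. The list holds ARNT, EPAS1 (the alpha subunit HIF-2), VHL with its ligase partners, EGLN1, EGLN2, the asparaginyl hydroxylase HIF1AN and the coactivators CREBBP and EP300, and HIF3A and ARNT2 did not reach the filter. At an unadjusted p under 0.05 there were 0, 2, 4 and 4 of the 13 for Lys05, BAQ12, BAQ13 and BAQ12O, where 4.98%, 11.8%, 19.4% and 12.8% of all genes were. Its median log2 differences were -0.05 for Lys05, 0.06 for BAQ12, 0.08 for BAQ13 and -0.06 for BAQ12O.

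Of 34 other HIF targets, 24 were tested. Among them 0 passed for Lys05 and BAQ12, 3 rose and 0 fell for BAQ13, and 1 rose and 1 fell for BAQ12O. Of all genes, 3.58% rose and 2.19% fell for BAQ13, and 0.934% rose and 0.543% fell for BAQ12O. At an unadjusted p under 0.05 there were 3 of the 24 for Lys05, 4 for BAQ12, 7 for BAQ13 and 5 for BAQ12O, beside the same 4.98%, 11.8%, 19.4% and 12.8% of all genes. The medians were -0.02, 0.02, 0.06 and 0.02. HMOX1, heme oxygenase, which also answers to oxidative stress through another factor, NRF2, rose under BAQ13. It had 44.98, 45.8 and 47.3 normalised counts over the Ctrl libraries from lowest to highest, and 127, 164 and 222 in BAQ13, a log2 difference of 1.84 (standard error 0.28, adjusted p = 0.000418). It also exceeded Lys05 directly, by 1.59 (adjusted p = 0.00279). Both calls held in all 15 fits without 1 library. HMOX1 also lay above Ctrl in every BAQ12 (66.95 to 181) and BAQ12O library (75.3 to 86.2), without a call. Lys05 (40.6 to 65.3) overlapped Ctrl.

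SLC2A3, the glucose transporter GLUT3, rose under BAQ13 and BAQ12O. It had 19.1, 19.3 and 29.03 normalised counts in Ctrl, 39.2, 41.9 and 49.4 in BAQ13 and 45.8, 48.5 and 51.0 in BAQ12O, from lowest to highest. In BAQ12 it had 34.9, 35.2 and 46.8, all above Ctrl, and in Lys05 28.7, 39.2 and 40.6, which overlapped Ctrl. It did not pass in these 2 groups, but the higher level was not particular to BAQ13 and BAQ12O. The log2 differences for BAQ13 and BAQ12O were 0.94 (adjusted p = 0.00806) and 1.0996 (adjusted p = 0.0073). Both calls were lost without Ctrl replicate 3 (adjusted p = 0.0524 and 0.0536), and SLC2A3 has a near-identical copy, SLC2A14, with which reads could be shared. MXI1, a MYC antagonist named here after its value was seen, had 42.4, 43.1 and 49.8 normalised counts in Ctrl and 59.5, 73.8 and 76.5 in BAQ13. Every library of Lys05 (58.6 to 71.9), BAQ12 (58.7 to 68.0) and BAQ12O (51.0 to 64.8) also lay above Ctrl, without a call. The higher level was thus not particular to BAQ13. Under BAQ13 it rose by 0.62 on the log2 scale (adjusted p = 0.0191). That call was lost in 4 of the 15 fits without 1 library, which were those without Ctrl replicate 2, Ctrl replicate 3, BAQ13 replicate 1 or BAQ13 replicate 2 (adjusted p = 0.0847, 0.0806, 0.0904 and 0.0856), and with DESeq2 (adjusted p = 0.0518). TFRC, the transferrin receptor, which is also set by iron through its mRNA, fell by 0.65 under BAQ12O (adjusted p = 0.009), from 177, 183 and 207 normalised counts in Ctrl to 99.3, 128 and 135. TFRC also lay below Ctrl in every BAQ12 (155.9 to 170.8) and BAQ13 library (135.8 to 159.2), without a call. Lys05 (154.1 to 185.8) overlapped Ctrl. The TFRC call for BAQ12O was lost without Ctrl replicate 3 (adjusted p = 0.0757) or BAQ12O replicate 3 (adjusted p = 0.0595).

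Of 15 enzymes of glycolysis, 14 were tested. For Lys05 0 passed, for BAQ12 1 rose (0.572% of all genes did), for BAQ13 2 rose and 1 fell, and for BAQ12O 2 rose. An unadjusted p under 0.05 was found for 2 of the 14 for Lys05 (4.98% of all genes), 4 for BAQ12 (11.8%), 4 for BAQ13 (19.4%) and 4 for BAQ12O (12.8%). The list medians were -0.0096, 0.11, 0.09 and -0.02. ALDOC, the aldolase of brain, had the largest difference of the 3 lists by limma. It had 8.26, 10.8 and 12.3 normalised counts in Ctrl and 62.0, 74.7 and 85.7 in BAQ13, a log2 difference of 2.72 (standard error 0.28, adjusted p = 6.23e-06). In BAQ12 it had 25.7, 34.9 and 46.5 (difference 1.66, adjusted p = 0.00434) and in BAQ12O 21.9, 32.3 and 38.6 (difference 1.46, adjusted p = 0.0113). All libraries of these groups lay above Ctrl. So did those of Lys05 (12.5, 14.9 and 25.6), where the gene did not pass and the gap to Ctrl was narrow. Of all genes, 8.24%, 7.75%, 14.5% and 12.5% were separated in that way for Lys05, BAQ12, BAQ13 and BAQ12O. The BAQ12 call was lost when only the 6 libraries compared were fitted (adjusted p = 0.0842), and the BAQ12O call without Ctrl replicate 3, BAQ12O replicate 1 or BAQ12O replicate 3 (adjusted p = 0.0788, 0.0554 and 0.0859). BAQ13 exceeded Lys05 directly, by 2.06 (adjusted p = 0.000251).

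ENO2, the neuronal enolase, had 51.4, 66.1 and 78.9 normalised counts in Ctrl, 120, 123 and 134 in BAQ13 and 116, 116 and 120 in BAQ12O. On the log2 scale it rose by 0.95 (adjusted p = 0.000834) and 0.85 (adjusted p = 0.0073), the latter lost without Ctrl replicate 2 (adjusted p = 0.0537). LDHA, lactate dehydrogenase, also named after its value was seen, fell by 0.48 under BAQ13 (adjusted p = 0.00287), from 1937, 1977 and 2131 to 1346, 1456 and 1540. LDHA also lay below Ctrl in every library of Lys05 (1677 to 1737), BAQ12 (1441 to 1758) and BAQ12O (1554 to 1903), without a call. Of all genes, 7.37%, 7.61% and 13.3% were separated in that way. ENO2 lay above Ctrl in every BAQ12 library (84.2 to 102.7) and overlapped it in Lys05 (65.6 to 94.3), also without a call. ALDOC and ENO2 rose and LDHA fell under BAQ13, all 3 being known HIF targets, but these directions were not particular to BAQ13.

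**Figure D4:**
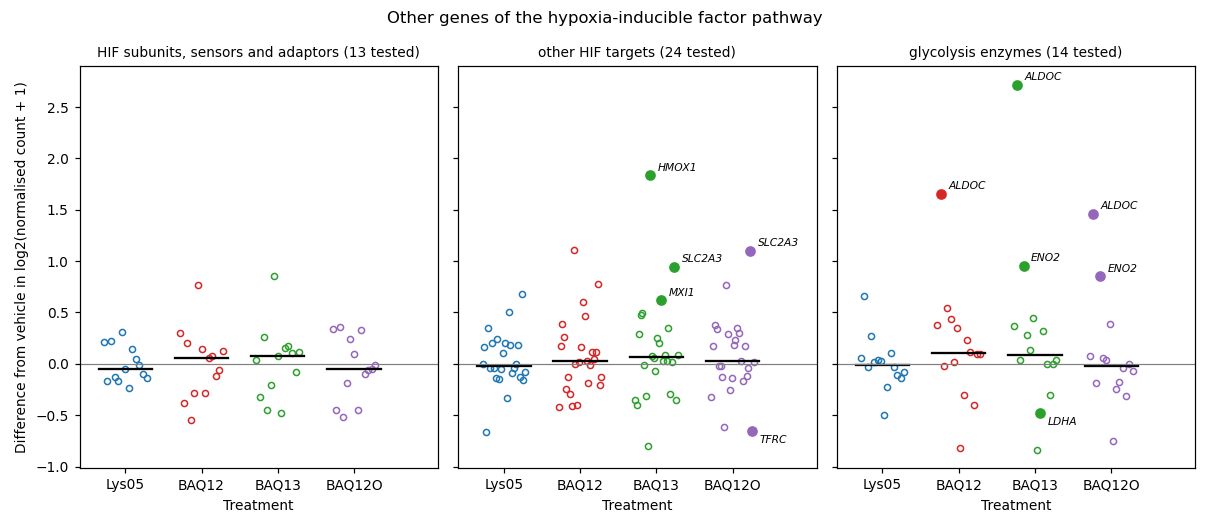
Differences from Ctrl in log2(normalised count + 1) (y axis) for the genes tested in each of 3 HIF pathway lists (panels), by treatment (x axis). Filled and named points passed an adjusted p of 0.05 in limma, open points did not, and the bar is the list median. The medians lie between -0.06 and 0.11, and the named points reach 2.72 for ALDOC under BAQ13.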

How the data were processed

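For each of 15 RNA-seq libraries the authors deposited a normalised signal, which is the reads of a gene divided by the library's size factor. Their processing notes name STAR, HTSeq, DESeq2 and GRCh38 without roles or versions. The kit is a 3′ mRNA kit by the labels and a stranded paired-end kit by the study's methods, which is not settled here, so levels were not compared between genes. All values were whole multiples of 1 read (100% per library, tolerance 0.01), and reads were recovered from them. The deposited values came as normalised signal, so limma 3.58.1 (R 4.3.3; eBayes with trend) was fitted to log2(value + 1) over the 15 libraries without covariates, for 10 comparisons, on the 10495 genes kept by filterByExpr (minimum count 10, minimum total 15), with Benjamini-Hochberg adjustment over those genes and 2-sided tests. Genes passed at an adjusted p under 0.05. The test was checked on simulated data.

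edgeR 4.0.16 on the recovered reads called 24, 102, 689 and 160 genes for Lys05, BAQ12, BAQ13 and BAQ12O against Ctrl, and limma 25, 103, 606 and 155. Other alternatives were DESeq2 1.42.0, TMM factors, pseudocounts of 0.1 and 5, no filter, at least 10 reads in every library, only the 6 libraries compared, library quality weights, a replicate block and leaving out each library. Those for listed genes other than the set were added after seeing the data. Limits from reads cover counting error only (95% intervals are from limma).

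The set and the lists were chosen with earlier results of these data known. All 10 genes are named, and of the lists at most the 4 largest called changes per comparison with Ctrl, besides those said to be named later. The genes most like a called gene of the set were to be named, and none was called. Symbols of ELOB, ELOC and ERO1A were matched by identifier. Figures used Python 3.11.15 and matplotlib 3.10.9.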

Additional observations from a re-analysis of the deposited data

How the results depend on the processing

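All 10 comparisons gave 0 called HIF genes, and so did edgeR, DESeq2, TMM factors, both pseudocounts, no filter and at least 10 reads in every library, although ADM and PDK1 had too few reads for the last and DESeq2 gave no adjusted p for ADM in 8 comparisons. Library quality weights called 1 gene for BAQ12 against Ctrl (SLC2A1), 4 for BAQ13 against Ctrl (ADM, SLC2A1, NDRG1 and BNIP3L), 1 for BAQ12O against Ctrl (ADM), 1 for BAQ13 against Lys05 (BNIP3L) and 1 for BAQ12O against BAQ13 (BNIP3L). These weights were 0.125 for BAQ12 replicate 3, 3.97 for BAQ12 replicate 2 and 3.52 for BAQ13 replicate 2. With them 626, 2333 and 700 of all 10495 genes passed for BAQ12, BAQ13 and BAQ12O against Ctrl. It was 1468 for BAQ13 against Lys05 and 908 for BAQ12O against BAQ13. Fitting only the 6 libraries compared called 1 for BAQ12O against Ctrl (ADM). Leaving out 1 library gave 0 to 1 there (1 without Ctrl replicate 1 or without BAQ12 replicate 3) and 0 in the other 9 comparisons. No called value changed sign. The cause was not tested.

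The fit with the replicate number as a block called 0 HIF genes in all 10 comparisons, with ADM for BAQ12O against Ctrl at an adjusted p of 0.104. Deviations of same-numbered libraries correlated from -0.492 to 0.2, so no steady pairing by number was seen. The deviations are from means of only 3 libraries, so this check cannot exclude a batch shared by number.

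Counts over all genes moved by over 1.5 times in 39 combinations of a comparison and a fit without 1 library, and did not in 111. For Lys05, BAQ12, BAQ13 and BAQ12O against Ctrl they were 25, 103, 606 and 155, then 115, 31, 947 and 871 with only the 6 libraries compared, and 73, 626, 2333 and 700 with quality weights. Without BAQ12 replicate 3 they were 51 for Lys05, 1441 for BAQ13 and 524 for BAQ12O. Without Ctrl replicate 3 they were 56 for BAQ12, 320 for BAQ13 and 75 for BAQ12O, the lowest for each after leaving out 1 library. For the pairs of compounds the alternatives other than leaving out 1 library ranged from 0 to 176 (BAQ12 against Lys05), 199 to 1468 (BAQ13 against Lys05), 21 to 223 (BAQ12O against Lys05), 9 to 1801 (BAQ13 against BAQ12), 8 to 467 (BAQ12O against BAQ12) and 103 to 908 (BAQ12O against BAQ13). With 3 to 20 reads per library, ADM and PDK1 carry the widest intervals.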
